A study of Arabidopsis thaliana with 16 samples.

Results

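CCS (AT1G12520), the copper chaperone for superoxide dismutase of Arabidopsis thaliana, was followed across expression arrays of the plastocyanin mutant pete1 and the wild type (WT). Its probe was chosen from the platform annotation, as the probe that names CCS and no other gene. It is 1 of 692 probes that name a single gene, out of 3439 probes in all, and no other probe of the annotation names CCS. Total RNA was measured on 8 arrays of pete1, which lacks 1 plastocyanin isoform, and on 8 arrays of WT. All plants were of ecotype Columbia 0 and grew on soil. The labels give no allele, age or organ, nor the number of plants behind each array. The p-values therefore refer to the spread among the arrays measured, part or all of which may be technical.

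Copper in the chloroplast serves mainly plastocyanin, the soluble protein that carries electrons from the cytochrome b6f complex to photosystem I, and the Cu/Zn superoxide dismutase of the stroma. CCS delivers copper to the Cu/Zn superoxide dismutases, CSD1 in the cytosol and CSD2 in the chloroplast, and its transcript is known in Arabidopsis as a target of the microRNA miR398, which accumulates when copper is short. The comparison asks whether the level of CCS mRNA differs when 1 plastocyanin is missing.

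The values are spot intensities on a linear scale that ends at 100 on each array. The CCS probe was measured above 0 on 16 of 16 arrays, whereas 15.8% to 24.6% of all values were 0 on the pete1 arrays and 13.2% to 17.8% on the WT arrays. In pete1 the deposited CCS intensity was 0.052, 0.0698, 0.0486, 0.114, 0.15, 0.151, 0.186 and 0.194 on replicates 1 to 8. In WT it was 0.338, 0.495, 0.172, 0.164, 0.186, 0.192, 0.195 and 0.171 on replicates 1 to 8. WT replicates 1 and 2 were the brightest of the 16 arrays, pete1 replicates 1 to 4 were the dimmest, and replicates 5 to 8 of the groups lay close to each other.

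Part of this order followed the overall brightness of the arrays. The median probe had an intensity of 0.0524 to 0.0856 on pete1 replicates 1 to 4 and of 0.196 to 0.205 on pete1 replicates 5 to 8, against 0.129 to 0.193 on the WT arrays. Divided by the median of its own array, CCS was 0.605 to 1.33 in pete1, with a mean of 0.94 ± 0.24, and 0.884 to 2.91 in WT, with a mean of 1.47 ± 0.67 (SD, n = 8 each). On this scale pete1 replicate 4 was as high as WT replicate 3, both at 1.33, and WT replicate 8 was below 5 of the pete1 arrays.

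**Figure D1:**
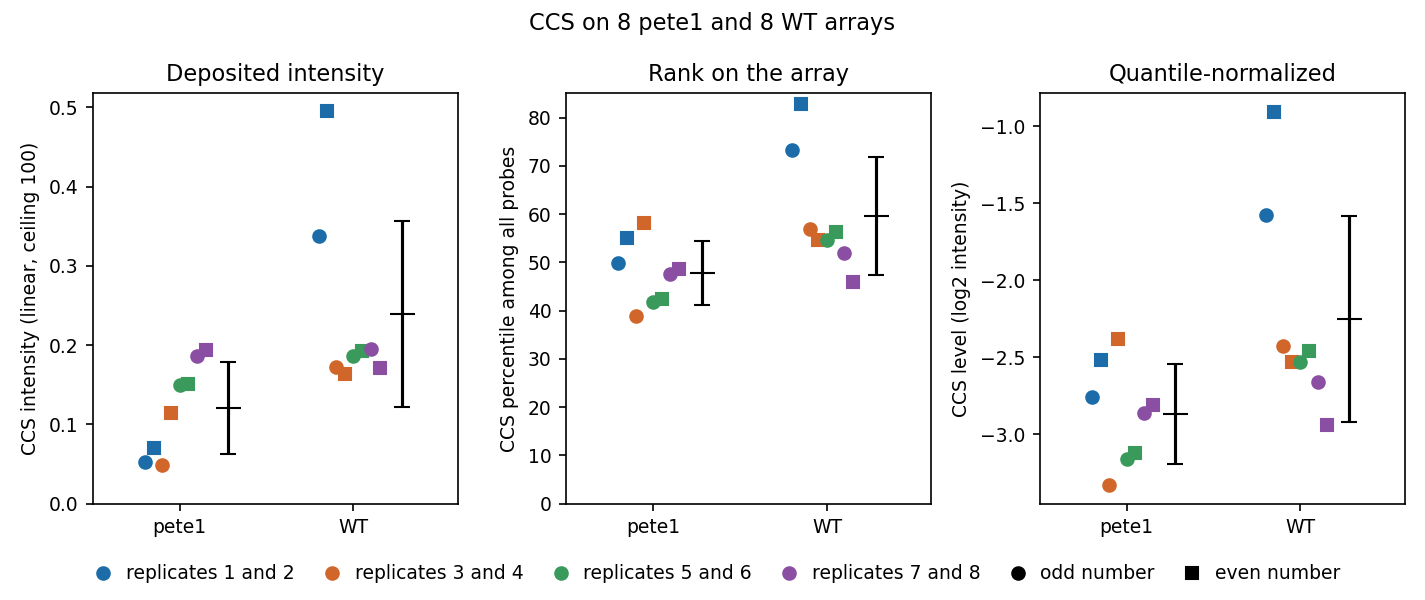
CCS on each array as deposited intensity (left), as percentile among the 3439 probes of the array (middle) and as quantile-normalized log2 intensity (right), with pete1 left of WT. Colours mark consecutive replicate numbers, circles odd and squares even numbers, and the bars give the mean ± SD of 8 arrays; WT replicates 1 and 2, at the 73.3rd and 82.8th percentile, stand above all other arrays.

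Ranked within each array, which does not depend on scaling between arrays, the probe was of middle brightness. Its percentile among the 3439 probes ran in pete1 from 38.9 on replicate 3 to 58.1 on replicate 4, with a mean of 47.8 ± 6.6. In WT it ran from 46 on replicate 8 to 82.8 on replicate 2, with a mean of 59.6 ± 12.2 (SD, n = 8 each). The number of brighter probes was 1442 to 2102 on the pete1 arrays and 590 to 1857 on the WT arrays. A rank describes the brightness of a probe, not how abundant the transcript is relative to other genes.

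The mean percentile differed by -11.8 points, pete1 minus WT (exact permutation test over 16 arrays, two-sided, p = 0.0213). Over averages of consecutive replicates the same difference had an exact permutation p of 0.0571, where 4 against 4 can reach 0.0286 at the least. Among the probes above 0 on all arrays the difference was -16.3 points (exact permutation p = 0.00575, unadjusted). Among probes naming 1 gene it was -12 points (exact permutation p = 0.0277, unadjusted). Ranked among all probes, the call over 16 arrays was lost without pete1 replicate 3, where the difference was -10.5 points (exact permutation p = 0.0508). Without WT replicates 1 and 2 the difference was -5.61 points (exact permutation p = 0.0939).

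After quantile normalization, which gives all arrays the same distribution of intensities, CCS was on the log2 scale -2.76, -2.52, -3.33, -2.38, -3.16, -3.12, -2.86 and -2.81 on pete1 replicates 1 to 8. In WT it was -1.58, -0.91, -2.43, -2.53, -2.53, -2.46, -2.66 and -2.94. The groups overlapped: 3 of 8 pete1 arrays lay below every WT array, 2 of 8 WT arrays lay above every pete1 array, and the other arrays were interleaved. For scale, the values of the 16 arrays did not overlap between the groups in 3.08% of all probes. No CCS value lay at an array's floor, the level under which intensities were not told apart.

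The mean was -2.87 ± 0.33 in pete1 and -2.26 ± 0.67 in WT (SD, n = 8 each), a log2 change of -0.61 with an SE of 0.30 and a 95% interval from -1.23 to 0.01. This is a fold of 0.654, with an interval from 0.425 to 1. In RNA of whole samples, fewer cells that express a gene and less of its RNA per cell cannot be told apart. CCS did not pass limma's test, fitted across all probes, at a threshold of 0.05 (adjusted p = 0.138, and 0.0524 before adjustment). In that fit 13.5% of all probes passed, 8.23% higher and 5.26% lower in pete1, and 37.2% had an unadjusted p under 0.05. Of the 793 probes whose mean level lay within 0.5 (log2) of that of CCS, 10.8% passed. Tested alone, without the other probes, the CCS values gave an exact permutation p of 0.0204 over 16 arrays. It was 0.0319 when adjusted over the 6 ways in which the CCS values were tested alone, and 0.0571 over averages of consecutive replicates.

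Arrays with consecutive replicate numbers deviated together from their group mean across all probes (correlation of 0.136 to 0.635, median 0.439). Of the arrays, 16 of 16 matched the other array of their consecutive pair best. The 8 arrays of a group can therefore not be taken as 8 independent samples. For CCS the members of such a pair differed by 0.04 to 0.96 in pete1 and by 0.07 to 0.67 in WT. The pair averages were -2.64, -2.85, -3.14 and -2.84 in pete1 and -1.25, -2.48, -2.50 and -2.80 in WT, for replicates 1 and 2, 3 and 4, 5 and 6, and 7 and 8. Each pete1 pair average was below the WT pair average of the same numbers, by 1.39 for the first pair and by 0.04 for the last. Array by array, 6 of 8 pete1 arrays lay below the WT array of the same number, with differences from -1.6 to 0.15. The labels do not say that equal numbers belong together. With pairs averaged, the CCS change had an SE of 0.46, an interval from -1.60 to 0.37 and an adjusted p of 0.461 (limma), in a fit where 0.262% of probes passed. With pairs kept as a random block (correlation 0.718) the interval ran from -1.46 to 0.23 and the adjusted p was 0.404. The fold interval over pair averages, 0.33 to 1.29, thus holds both a level in pete1 well under that of WT and a level above it.

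WT replicates 1 and 2 carried much of the difference. Without them CCS had a log2 change of -0.28 (SE 0.22, interval from -0.74 to 0.18, limma adjusted p = 0.363). Without replicates 1 and 2 of both groups it was -0.35 (SE 0.21, interval from -0.81 to 0.10, adjusted p = 0.299). On replicates 3 to 8 the mean level was -2.95 ± 0.34 in pete1 and -2.59 ± 0.19 in WT (SD, n = 6 each). These replicates were set apart after their values had been seen. CCS varied less than most probes, since 5.61% of probes had a smaller SD than CCS in pete1 and 33.8% in WT. A probe at the floor of all arrays takes the SD of the floors, 0.53 in pete1 and 0.71 in WT. The comparison thus partly reflects the floors, and it was not made among probes of similar level.

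The size of the change depended on the scale, and so did the median change of all probes, though the 2 did not always move together. With quantile normalization the median probe had a change of 0.22 and CCS lay 0.84 below it. On the deposited scale, without normalization, CCS had a change of -1.05 (interval from -1.85 to -0.25, limma adjusted p = 0.0907) where the median probe had -0.56, so that CCS lay 0.49 below it. With median centring CCS had -0.58 against a median of -0.09, and with cyclic loess -0.49 against 0.01. With 1 common floor for all arrays, the highest of their floors (0.0581 in quantile-normalized intensity), it had -0.61 against 0.01. That setting differs from the first in the floor alone, so the median change of 0.22 depends on floors set per array. With the common floor CCS lay 0.62 below the median probe. With array weights, which count arrays that deviate less more heavily, the change was -0.40 (adjusted p = 0.159). The change of CCS was below 0 in 45 of 45 other settings, with adjusted p from 0.0907 to 0.676 (limma, or the exact Wilcoxon test in 1 setting).

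**Figure D2:**
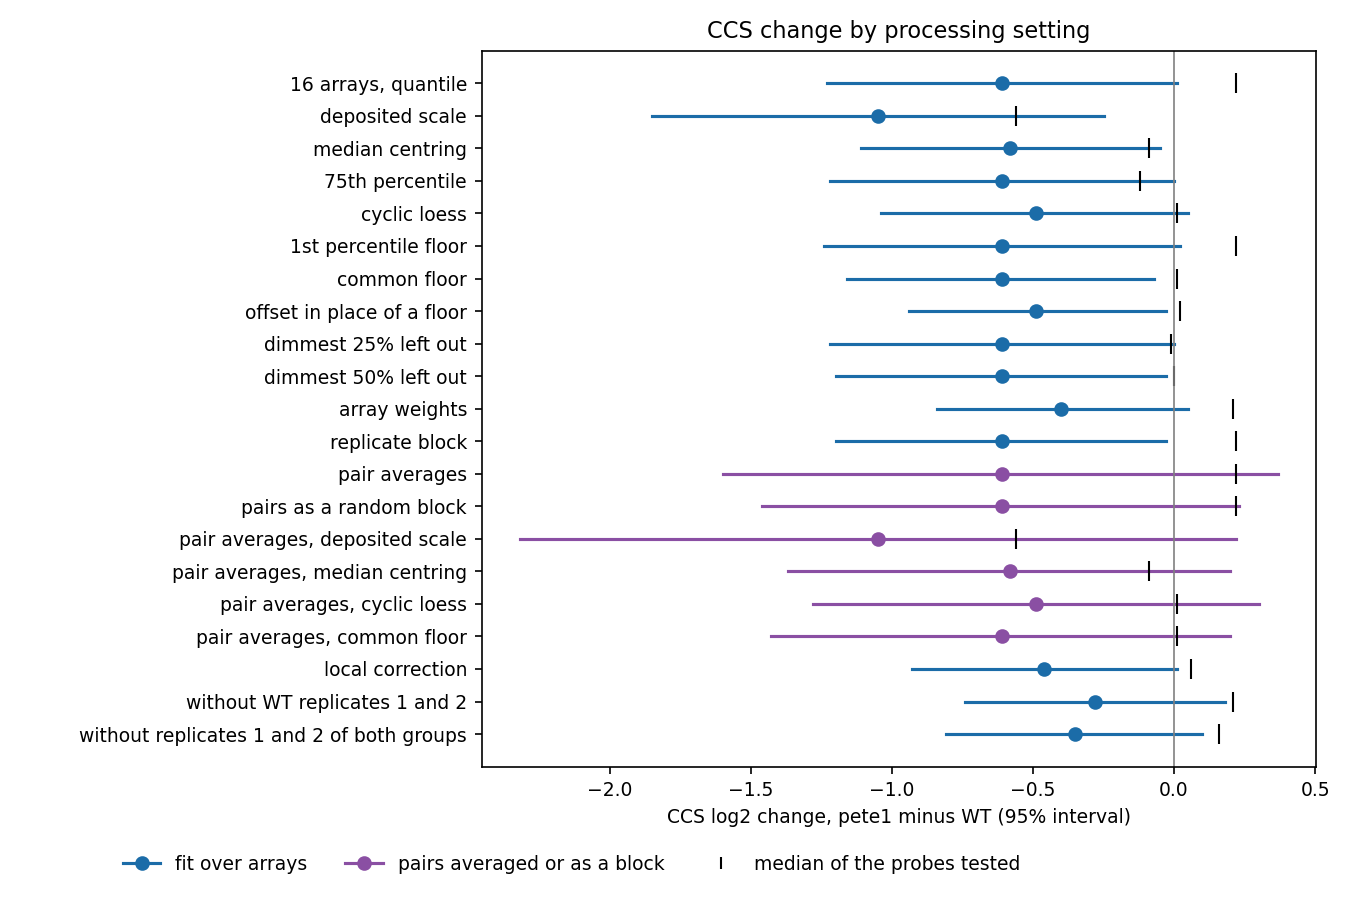
Log2 change of CCS, pete1 minus WT, with its 95% interval (x axis) under each processing setting (y axis). Blue marks fits over arrays, purple fits with consecutive replicates averaged or as a block, and the black tick the median change of the probes tested. CCS lies left of 0 in each setting shown, and its interval reaches past 0 in each purple one, for example from -1.60 to 0.37 for pair averages.

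Among all probes the change of CCS was moderate. Of the 3439 probes 16.7% had a lower change than CCS. This share was 24% on the deposited scale, and 30.6% without WT replicates 1 and 2. Median centring shifts all probes of an array by the same amount, so it gave the same 24% by construction. Among the 793 probes of similar level, whose median change was -0.13, 23.7% had a lower change. The floors of the arrays averaged -4.91 in pete1 and -5.74 in WT on the log2 scale. A probe at the floor of all 16 arrays takes the difference between these means as its change. The distribution has a peak of 408 probes with changes from 0.8 to 1, of which 67.2% lay at or under the common floor on more than 8 arrays, against 23.4% of all probes. After quantile normalization CCS was above the common floor on all 16 arrays.

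**Figure D3:**
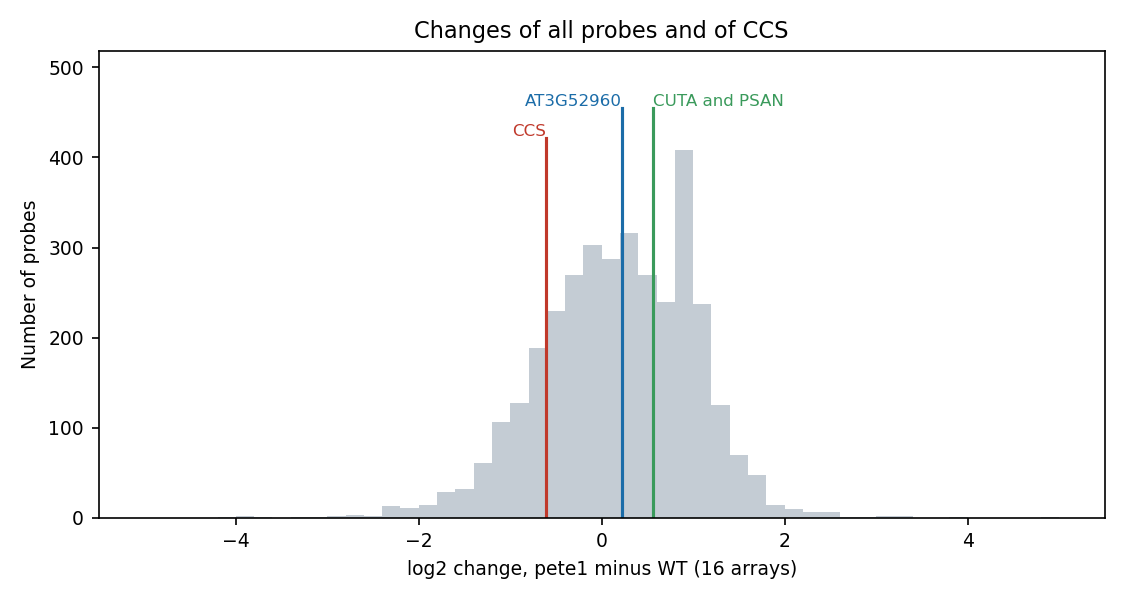
Number of probes (y axis) by log2 change, pete1 minus WT (x axis), for all 3439 probes. Vertical lines mark CCS at -0.61 and the measured copper and redox genes AT3G52960 at 0.22 and CUTA and PSAN at 0.56, all within the bulk of the probes.

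Few partners of CCS could be set beside it. Of 103 genes in 6 lists for copper use and redox defence, 3 were measured by a probe that names a single gene, and 0 of these 3 passed in either direction (limma adjusted p over all probes), against 13.5% of all probes. 5 further genes lay on probes that name several genes, which were not used. The 7 superoxide dismutases, among them the CCS clients CSD1 and CSD2, the 25 copper proteins, with the plastocyanins PETE1 and PETE2, and the 2 regulators of the copper response, SPL7 and CITF1, had no probe of their own. The labels could thus not be checked against the mutated gene. The median change of the 3 measured genes was 0.56, against 0.22 for all probes. With the common floor the median of all probes was 0.01.

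Of the 30 genes for copper transport and copper chaperones, CUTA was measured. CUTA is a chloroplast protein of the CutA family, named after a copper tolerance locus of bacteria. Its deposited intensity was 0.0032 to 0.948 in pete1, with a median of 0.475, and 0.0971 to 1.82 in WT, with a median of 0.206. It averaged -1.40 ± 1.20 in pete1 and -1.96 ± 1.30 in WT on the log2 scale (SD, n = 8 each), a change of 0.56 with an interval from -0.62 to 1.75 (limma adjusted p = 0.507). The ranges overlapped. The change was 0.95 without pete1 replicate 1 (adjusted p = 0.172), 0.92 without WT replicate 6 (adjusted p = 0.207) and 1.11 without replicates 1 and 2 of both groups, and on the deposited scale the change had the other sign, -0.12 (adjusted p = 0.936).

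Of the 18 antioxidant enzymes, AT3G52960 was measured, which the list holds as the peroxiredoxin PRXIIE. It averaged -4.19 ± 0.95 in pete1 and -4.41 ± 1.08 in WT (SD, n = 8 each), a log2 change of 0.22 with an interval from -0.77 to 1.22 (limma adjusted p = 0.773) and with a sign that turned with the scaling. The probe lay at the common floor on 6 pete1 and 5 WT arrays and is near the limit of measurement. Of the 21 genes for electron transport around plastocyanin, PSAN was measured, a subunit of photosystem I on the side where plastocyanin docks. It averaged 2.78 ± 0.71 in pete1 and 2.22 ± 0.69 in WT (SD, n = 8 each), a log2 change of 0.56 with an interval from -0.18 to 1.30 (limma adjusted p = 0.271). The change was 1.1 with median centring (adjusted p = 0.174), 1.07 with the 75th percentile (adjusted p = 0.15) and 0.92 without WT replicates 1 and 2. It was 0.84 with array weights (adjusted p = 0.0273) and 0.93 with the local correction by neighbouring probes (adjusted p = 0.0263). With cyclic loess it was 0.60 (adjusted p = 0.338). Over pair averages it was 0.56 (limma adjusted p = 0.57), and likewise with pairs as a random block (limma adjusted p = 0.433). Pair averages without pete1 replicates 1 and 2 gave 0.23 (limma adjusted p = 0.858).

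The profile of CCS over the arrays was then compared with that of 500 other probes that name a single gene and lie at their array's floor on at most 4 arrays. The Pearson correlation over 16 arrays had a median of -0.04, ran from -0.89 to 0.83, and was over 0.7 for 11 probes. The correlations are descriptions, since all genes share the same arrays and the 5 named here were picked for the highest values. They are GH9B11, a glycosyl hydrolase, at 0.83, AT4G32340 at 0.81, AT2G36480 and AT4G39690 both at 0.80, and AT4G16610 at 0.78. Spearman correlations were lower, from 0.50 for AT4G39690 to 0.70 for AT4G32340. Taken over deviations from the group means, the correlations were 0.69 to 0.84.

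WT replicates 1 and 2 were the highest of the 16 arrays in CCS and in 4 of the 5 genes. Since the genes were picked for their likeness to CCS over these same arrays, this count largely follows from the choice. Over all probes the share was 9.54%. AT4G16610 is the exception, with -0.78 on WT replicate 2 and -2.11 on WT replicate 1. Without WT replicates 1 and 2 the correlations with CCS were 0.44 to 0.63, and 1 of the 500 probes was over 0.7.

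The 5 genes did not all have the same difference between the groups. They were picked for their likeness to CCS over the arrays of both groups, and CCS averaged lower in pete1. Their lower values in pete1, and the p-values of these differences, are therefore partly set by the choice. Of all probes, 5.26% passed limma over arrays as lower in pete1. GH9B11, the closest in profile, had a log2 change of -0.35 (limma adjusted p = 0.492). It averaged -3.08 ± 0.63 in pete1 and -2.73 ± 0.70 in WT (SD, n = 8 each), and its change was 0.01 without WT replicates 1 and 2. AT4G32340 fell by 1.23 in log2 terms (limma adjusted p = 0.0103), to -1.01 ± 0.38 in pete1 against 0.22 ± 0.60 in WT (SD, n = 8 each). AT4G39690 fell by 1.02 (limma adjusted p = 0.0266), to 1.05 ± 0.29 in pete1 against 2.07 ± 0.62 in WT (SD, n = 8 each), and lost its call with median centring (adjusted p = 0.126) and with the 75th percentile (adjusted p = 0.103). AT2G36480 fell by 2.83 (limma adjusted p = 0.00138), to -2.03 ± 0.26 in pete1 against 0.81 ± 1.5 in WT (SD, n = 8 each). AT4G16610 averaged -2.74 ± 0.40 in pete1 and -2.06 ± 0.55 in WT (SD, n = 8 each), a change of -0.68 (limma adjusted p = 0.0837). With the exact Wilcoxon test AT4G16610 passed (adjusted p = 0.044). Over pair averages 0 of the 5 passed (limma adjusted p from 0.0957 to 0.723), against 0.262% of all probes. With pairs as a random block, at the estimated correlation of 0.718, AT2G36480 passed (limma adjusted p = 0.0119), and AT4G32340 (adjusted p = 0.0708) and AT4G39690 (adjusted p = 0.141) did not.

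**Figure D4:**
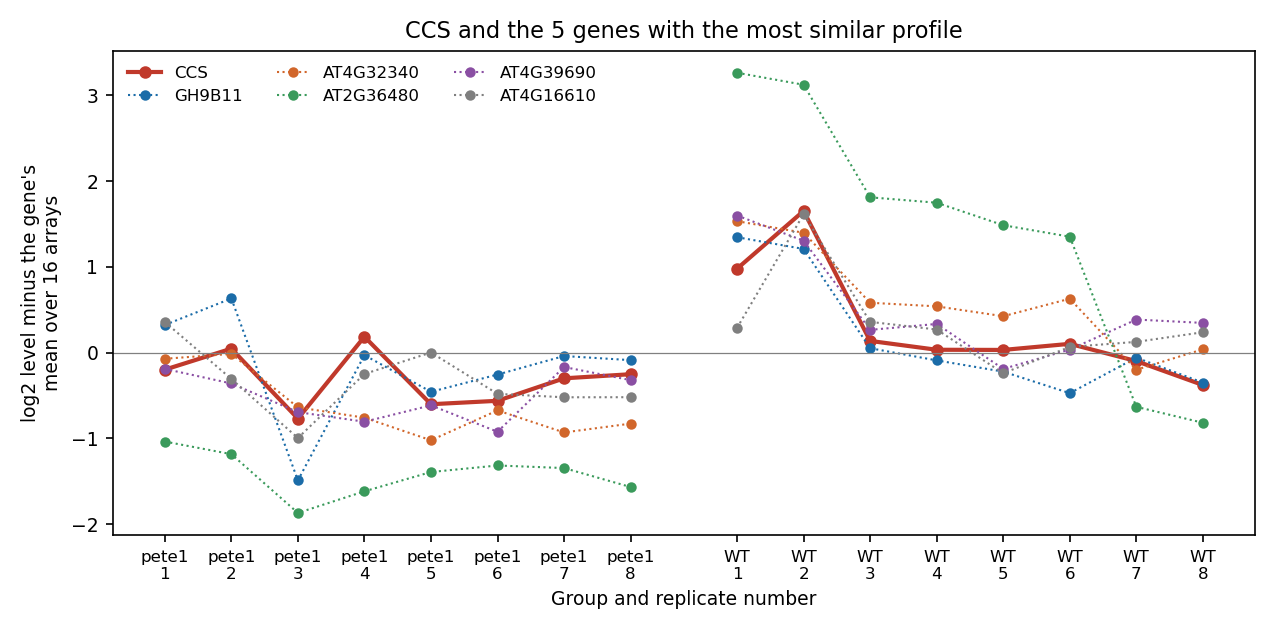
Log2 level of CCS (red, solid) and of the 5 genes with the most similar profile (dotted), each minus its own mean over 16 arrays (y axis), by group and replicate number (x axis); lines only join the points of a gene. CCS is highest on WT replicates 1 and 2, where 4 of the 5 genes are highest too, and AT2G36480 spans the widest range.

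Probes listed next to CCS also stood high on WT replicate 2. The 24 probes around it in the order of the table, 12 on each side, had a median deviation from their own means of 0.96 on WT replicate 2 and of 0.31 on WT replicate 1, and of -0.23 to 0.26 on the other arrays. On WT replicate 2 such a window had a median of -0.21 over the whole table, and 96.5% of windows lay below that of CCS. Between the groups these 24 probes had a median change of -0.09, and 1 of 24 passed, lower in pete1, against 5.26% of all probes. AT4G16610 is listed 16 probe numbers before CCS.

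When the median deviation of the neighbours was subtracted on each array, CCS stood at -1.87 on WT replicate 2 and at -1.90 on WT replicate 1. These were still the highest values of the 16 arrays. The other values were -3.40 to -2.50 in pete1 and -2.95 to -2.39 in the other WT arrays. The change was then -0.46 (SE 0.22, interval from -0.93 to 0.01, limma adjusted p = 0.141). After this step the correlation of CCS was 0.29 with AT4G16610, 0.82 with GH9B11, 0.69 with AT4G32340, 0.75 with AT2G36480 and 0.64 with AT4G39690. Whether the order of the table follows positions on the array is not given in the sources used here.

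**Figure D5:**
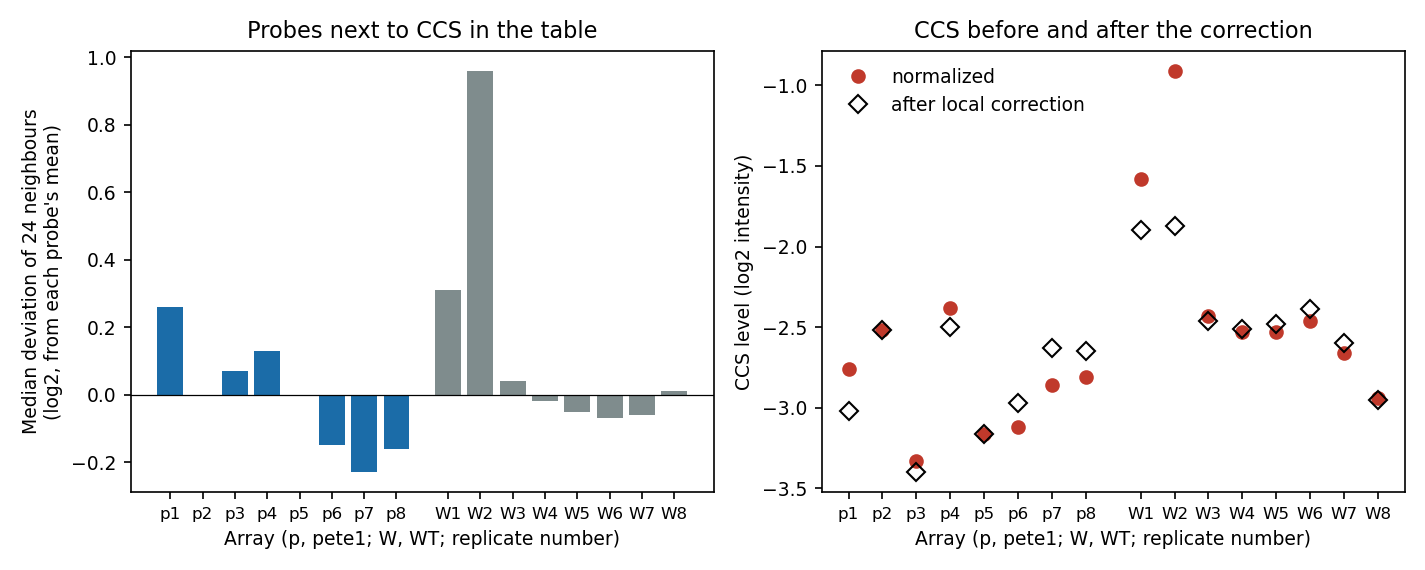
Left, median deviation (log2) of the 24 probes listed next to CCS from their own means, for each pete1 (blue) and WT (grey) array, with the highest value, 0.96, on WT replicate 2. Right, CCS level (log2 intensity) before (red) and after (diamonds) that deviation was subtracted; WT replicates 1 and 2 come closer to the rest and stay the highest.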

How the data were processed

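The deposited table holds intensity values of 3439 probes on 16 arrays, from 0 to a ceiling of 100 per array. For the authors' deposited intensities, the scanning, background correction, scaling and genome build are not given in the sources used. Probes were named from the platform annotation through RefSeq gene IDs (TAIR10.1, names only; 690 of 692 single-gene probes matched). Intensities were quantile-normalized (limma 3.58.1, R 4.3.3), values under each array's 5th percentile of positive values were set to it, and log2 was taken. The 2 groups were compared over 16 arrays with limma (lmFit, eBayes), two-sided, with Benjamini-Hochberg adjustment over all probes at 0.05. Fits were tested on simulated data with noise drawn independently for each array. The simulation thus cannot show how the shared deviations of consecutive replicates affect the calls. The number of arrays limits the precision.

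Named genes were CCS, measured members of 6 lists and the 5 single-gene probes most correlated with CCS. Members, lists and tests were chosen with earlier results of these data known. Alternatives covered normalization, floors, dim probes, tests, array weights, blocks, pair averages, neighbours in the table and arrays left out. The common floor was 0.0581 in quantile-normalized intensity. No 2 arrays held identical values.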

Additional observations from a re-analysis of the deposited data

Results flagged for a closer look

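Within each group of 8 arrays, 1 array that lay far from the other 7 was looked for in the values of CCS, of the other named genes, and in the medians and shares of 0 per array. It was found in 3 of 26 sets of 8 values; by chance about 1 in 20 would have one. CUTA had a log2 level of -4.10 on pete1 replicate 1, at that array's floor, with the next value at -2.02. AT3G52960 (PRXIIE in the list) had -6.90 on WT replicate 2, and the next value was -4.44. Both lay under the common floor of -4.10. The floor of WT replicate 2, -7.06, was the lowest, and the floors of the other WT arrays were -6.58 to -5.08. A value of -6.90 could thus not occur on those arrays. AT4G16610 had -0.785 on WT replicate 2, and the next value was -2.04. In CCS no array lay apart in this way, since WT replicates 1 and 2 were high together.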

How the results depend on the processing

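The change of CCS, -0.61, kept its sign in all settings run and did not pass limma or the Wilcoxon test in any of 45. Tested alone by exact permutation over 16 arrays, a test added after seeing the data, -0.61 passed (p = 0.0204). The same exact permutation test over averages of consecutive replicates, which deviated together, did not pass (p = 0.0571). Leaving out 1 array gave a change of -0.71 to -0.42, and 1 pair of averages -0.79 to -0.28. The percentile difference, -11.8, was not called over pair averages (-11.8, exact permutation p = 0.0571) or without pete1 replicate 3 (-10.5, exact permutation p = 0.0508). Nor was it called without WT replicates 1 and 2 (-5.61) and without replicates 1 and 2 of both groups (-7.13, exact permutation p = 0.0584), both added after seeing the data. Leaving out 1 array gave -13.7 to -8.44. The cause was not tested where a value moved, except that averaging leaves fewer samples.

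The 464 probes called (283 higher, 181 lower in pete1) became 269 on the deposited scale (27 and 242), 775 with the 1st percentile floor (579 and 196), 875 with the exact Wilcoxon test (675 and 200), 762 with array weights (422 and 340) and 62 with pairs as a random block. Pair averages gave 9, and in other scalings 7 (deposited), 35 (common floor), 20 (median centring) and 19 (cyclic loess). Higher and lower calls numbered 190 and 183 for the common floor, 197 and 199 for an offset, 168 and 186 for median centring, 200 and 190 for cyclic loess, 169 and 199 for the 75th percentile, and 301 and 351 for the local correction. Leaving out 1 array gave 312 to 878 calls (878 without pete1 replicate 5). Leaving out pete1 pairs in turn gave 10, 5, 8 and 8 over pair averages, and WT pairs 19, 6, 7 and 22.

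Of the 3 list members 1, PSAN, was called with array weights (adjusted p = 0.0273) and with the local correction (0.0263). Both are fits over arrays, and over pair averages PSAN was not called (limma adjusted p = 0.57). Signs turned for uncalled genes. CUTA was -0.12 on the deposited scale, over arrays and pair averages. AT3G52960 was -0.92 on the deposited scale, -0.45 for median centring and -0.23 for cyclic loess, each the same over arrays and pair averages. Over arrays it was -0.48 for the 75th percentile, -0.53 for the local correction, -0.12 for array weights, -0.13 for an offset and -0.01 for the 1st percentile floor. With 1 array left out it ran from -0.13 to 0.41. Over pair averages it was -0.03 when pete1 replicates 7 and 8 were dropped and -0.15 when WT replicates 1 and 2 were, also over arrays; dropping replicates 1 and 2 of both groups gave -0.28. GH9B11 was 0.01 without WT replicates 1 and 2, over arrays and pair averages.

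What a shared replicate number stands for is not in the labels. Deviations of same-numbered pete1 and WT arrays correlated at 0.0109 to 0.408, and 7 of 8 correlations were over 0.1. As the labels give no pairing, the main fit did not use the numbers as one. In the data 14 of 16 arrays matched their own number best, a hint at a link between equal numbers that was not tested. With the replicate number as a block CCS had -0.61 (limma adjusted p = 0.121), and 494 probes were called.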
